A study of Homo sapiens with 3 samples.

Results

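Small heat shock proteins are low molecular weight chaperones that share a crystallin domain, hold unfolding proteins in large oligomers without using ATP, and hand them over to HSP70 for refolding. BAG3 is a co-chaperone that links some of them, above all HSPB8, to HSP70 and to selective autophagy. Several members are induced by heat through HSF1, while others are known mainly from skeletal muscle or heart. The levels of 7 small heat shock protein genes (HSPB1, HSPB2, HSPB3, HSPB6, HSPB7, HSPB8 and CRYAB) and of BAG3 were examined in unstressed human embryonic kidney HEK-293T cells. All probe sets whose platform symbols include a listed gene were taken, which gave 12 of the 54675 probe sets and 8 of the 19775 genes with a probe set of their own. Of the 12, 11 are listed for the gene alone and 1 for HSPB2 together with C11orf52 and their read-through transcript.

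Total RNA from 3 cultures was hybridised to 3 Affymetrix U133 Plus 2.0 arrays, and the signals are MAS5 intensities on a linear scale. By the sample records, 2 cultures were harvested 48 h after seeding, 1 with 375K and 1 with 750K cells seeded (the 375K and 750K 48 h cultures), and 1 culture was harvested 24 h after seeding with 1000K cells (the 24 h culture). The line is a single transformed cell line for which the records list an inserted temperature sensitive SV40 T-antigen gene, and all 3 cultures were unstressed and untreated, so the arrays show basal levels and no response to heat. Harvest time and seeding cannot be told apart, since no seeding was used at both harvest times. The numbers in the array titles are adjacent for the 48 h pair and further off for the 24 h array. The titles do not say what these numbers mark, and whatever it is cannot be told apart from harvest time either. RNA integrity numbers were 9.6 and 10 in the 375K and 750K 48 h cultures and 9.5 in the 24 h culture. The records do not say whether the cultures were independent, so how much of the spread between them is technical cannot be told. The p-values rest only on the spread between the 2 cultures at 48 h. These differed in seeding and are not replicates of 1 condition.

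Median signals were 71.0 and 80.3 in the 375K and 750K 48 h cultures and 72.8 in the 24 h culture. To be counted as above background, a probe set had to exceed a threshold on each of the 3 arrays. The threshold was the 95th percentile of the signals of 279 probe sets whose genes are known mainly from tissues such as retina, liver and testis or code for olfactory and taste receptors (the reference). It was 93.4 and 127 in the 375K and 750K 48 h cultures and 84.8 in the 24 h culture. Of 10 genes known from HEK293 cells, 8 were above background, among them VIM and the neurofilament gene NEFM, whereas the kidney progenitor factors PAX2 (120 ± 31.1, SD, n = 3 arrays) and LHX1 (36.4 ± 25.9) were not. Of 12 measured striated muscle markers 10 were not above background, MYOD1, MYOG and DES included, and the exceptions were the troponin genes TNNT1 (339 ± 99.03) and TNNT3 (153 ± 52.0). None of 8 lens markers and 1 of 5 smooth muscle markers (ACTA2, 366 ± 97.5) was above background. PAX2, the lens gene BFSP1 (163 ± 63.2) and the smooth muscle gene TAGLN (111 ± 81.6) exceeded the threshold on 2 of the 3 arrays.

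Of the 8 genes, HSPB1 and BAG3 were above background and the other 6 were not. Over all genes of the array, 51.4% were above background by the same rule, and over all probe sets 38.2%, against 2 of the 12 examined here. The share of all genes depended on the percentile and on the reference. It was 26.2% at the 99th percentile, where HSPB1 and BAG3 were again the members above background. KRT10 was the only reference gene above background on all 3 arrays. Without its 3 probe sets, an alternative chosen after seeing the data, the share was 52.2% at the 95th percentile and 48.6% at the 99th. HSPB1 and BAG3 were measured only by probe sets of a kind that can share sequence with other transcripts. Without that kind 0 of the members and 44.2% of the genes that kept a probe set were above background. HSPB1, BAG3, HSPB3 and HSPB7 kept none, so they could not be called in this setting. HSPB1, BAG3 and HSPB8 have a broad tissue distribution, whereas HSPB2, HSPB3 and HSPB7 are known mainly from muscle or heart. HSPB6 and CRYAB are placed in neither group here, and whether the calls follow tissue distribution was not tested. Levels cannot be compared between probe sets, whose probes differ in affinity, so each probe set is described against the threshold of its array and across cultures, and no order of levels between genes is given. Each mean ± SD covers the 3 arrays and therefore includes any difference between the culture conditions.

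**Figure D1:**
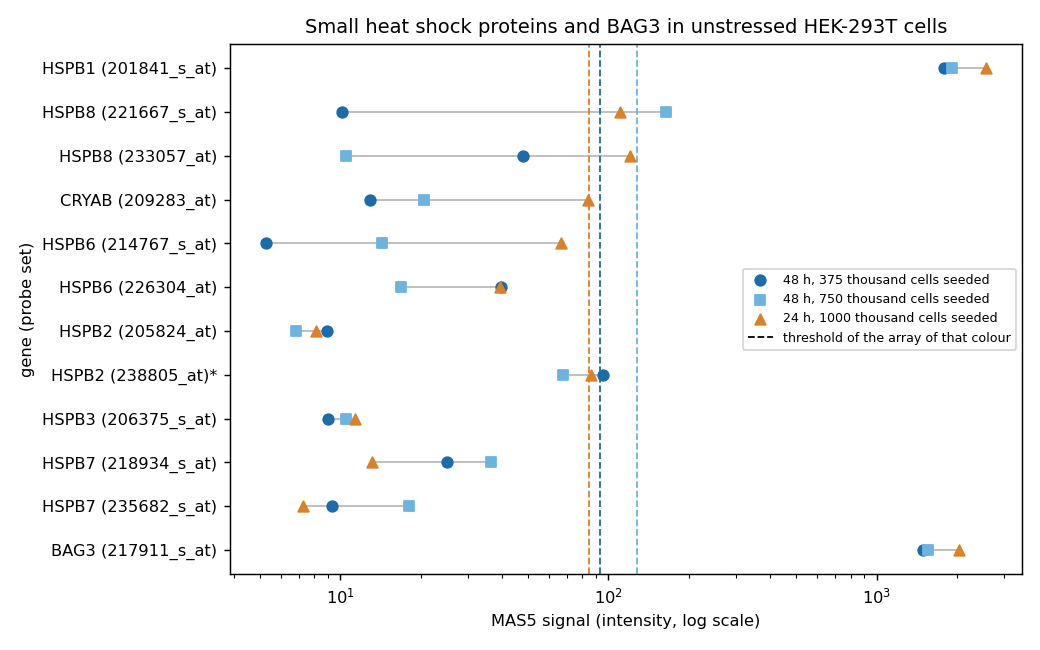
MAS5 signal (intensity, horizontal log axis) of the 12 probe sets of small heat shock protein genes and BAG3 in 3 cultures of unstressed HEK-293T cells. Symbols are the arrays, dashed lines the background threshold of the array of the same colour, and the asterisk marks the probe set listed for several genes. HSPB1 and BAG3 lie at least 12.2 times above the threshold of every array, and all other probe sets lie below it on at least 1 array.

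HSPB1, also called HSP27, is the most widely expressed small heat shock protein, binds actin filaments and is phosphorylated by the p38 kinase pathway. Its single probe set gave a signal of 1793 and 1919 in the 375K and 750K 48 h cultures and 2570 in the 24 h culture (2094 ± 417, SD, n = 3 arrays). Every array was at least 15.1 times above its threshold, and the highest was 1.43 times the lowest. The 2 cultures harvested at 48 h lay close together and both below the one harvested at 24 h. Among all probe sets above background, 79.2% had a smaller range over the 3 arrays on the log2 scale. The probe set is of a type (_s_at) that can hybridise to more than 1 transcript, and HSPB1 has annotated pseudogenes (HSPB1P1 and HSPB1P2), whose part in the signal was not tested.

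BAG3 carries a BAG domain that binds HSP70 and short motifs that bind small heat shock proteins. Its single probe set gave 1493 and 1554 in the 375K and 750K 48 h cultures and 2024 in the 24 h culture (1690 ± 291, SD, n = 3 arrays). The signals were 12.2 to 23.9 times the thresholds, and the highest was 1.36 times the lowest. BAG3 thus had the same order of cultures as HSPB1, with the 24 h culture highest and the 375K 48 h culture lowest, an order shown by 16.6% of the 22945 probe sets tested between harvest times. A smaller range was found for 71.7% of the probe sets above background.

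Both genes are known targets of HSF1, which binds inverted repeats of the unit NGAAN, and the bases upstream of their annotated starts of transcription are shown together with those of HSPB8, the usual partner of BAG3. The sequences are from a RefSeq table (GRCh38.p14), in which 6 of the 8 genes were matched, and run 5′ to 3′ over the 250 bases before the start. The windows of HSPB2 and CRYAB were not analysed here. They lie at chr7:76302423-76302672 (HSPB1, plus strand), chr10:119651130-119651379 (BAG3, plus strand) and chr12:119178681-119178930 (HSPB8, plus strand). Capitals mark a pair of units, GAANNTTC or TTCNNGAA. Both letter strings are their own reverse complement, so a match counts for both strands.
HSPB1: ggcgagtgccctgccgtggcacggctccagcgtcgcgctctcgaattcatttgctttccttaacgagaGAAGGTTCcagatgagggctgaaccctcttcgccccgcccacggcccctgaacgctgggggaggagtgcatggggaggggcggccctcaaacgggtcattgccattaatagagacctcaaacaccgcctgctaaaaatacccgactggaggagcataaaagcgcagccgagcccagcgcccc
BAG3: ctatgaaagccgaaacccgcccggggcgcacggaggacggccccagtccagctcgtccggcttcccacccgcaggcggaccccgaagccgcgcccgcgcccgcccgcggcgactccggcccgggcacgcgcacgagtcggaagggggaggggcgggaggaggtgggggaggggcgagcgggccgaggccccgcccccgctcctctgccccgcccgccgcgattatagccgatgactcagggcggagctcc
HSPB8: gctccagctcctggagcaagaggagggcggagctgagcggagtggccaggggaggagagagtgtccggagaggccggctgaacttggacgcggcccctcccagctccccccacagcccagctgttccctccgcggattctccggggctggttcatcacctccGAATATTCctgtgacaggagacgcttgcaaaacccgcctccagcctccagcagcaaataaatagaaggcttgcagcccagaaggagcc
HSPB1 had 1 such pair at -182 to -175 and HSPB8 1 pair at -88 to -81, and the window of BAG3 held none. HSPB3 had 1 pair at -242 to -235, HSPB6 had 2 pairs at -210 to -203 and -196 to -189, and HSPB7 had none. A pair was thus found in 4 of 6 members (66.7%), against 11.6% of all 35116 windows of the same length. No member held 3 adjoining units (both pairs overlapping in their middle unit, read on either strand), which 0.441% of all windows held. Of the members with a pair, HSPB1 was above background in these unstressed cells and HSPB3, HSPB6 and HSPB8 were not. Of those without a pair in this window, BAG3 was above background and HSPB7 was not. Whether the pairs bear on these basal levels was not tested.

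**Figure D2:**
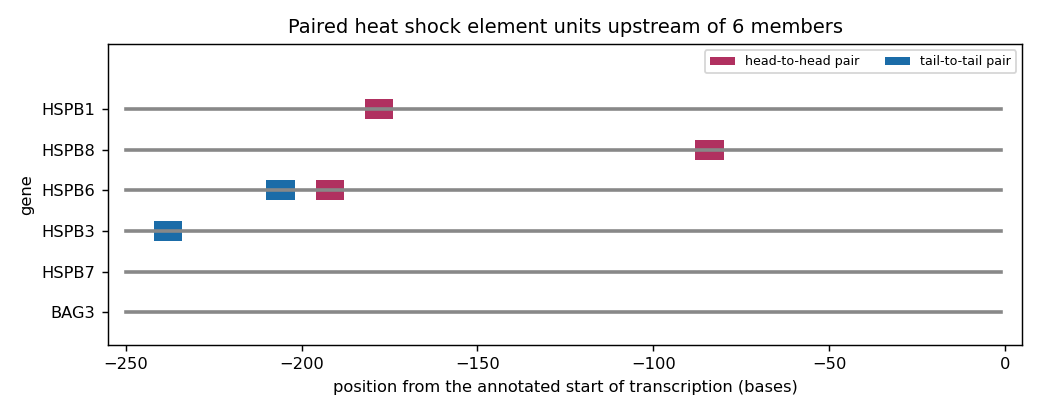
Position of pairs of heat shock element units in the 250 bases upstream of 6 members. The horizontal axis is the distance from the annotated start of transcription in bases, each grey line is a gene and each block a match of GAANNTTC (head-to-head) or TTCNNGAA (tail-to-tail). Of the 6 windows, 4 hold a pair, and those of HSPB7 and BAG3 hold none.

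HSPB8, known as HSP22, forms a complex with BAG3 that directs misfolded proteins to autophagy. Of the 7 small heat shock protein genes, only HSPB1 and HSPB8 passed the threshold on any array with their own probe sets. Leaving KRT10 out of the reference added CRYAB, in the 24 h culture. The first HSPB8 probe set gave 10.2 and 164 in the 375K and 750K 48 h cultures and 111 in the 24 h culture. It lay 1.29 and 1.31 times above the threshold in the 750K 48 h and the 24 h culture, and at 0.109 times the threshold in the 375K 48 h culture. The second gave 48.1 and 10.5 in the 375K and 750K 48 h cultures and 121 in the 24 h culture, and only the 24 h culture exceeded its threshold, at 1.42 times. The probe sets disagreed on the 750K 48 h culture, which was highest on the first and lowest on the second. HSPB8 counted as above background where 2 of 3 arrays sufficed or where the 375K 48 h culture was left out. Among the 279 reference probe sets, 19 exceeded the threshold on 1 array and 7 on 2 arrays, and among all probe sets 12.6% did so on 1 or 2 arrays, against 3 of the 12 examined here.

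CRYAB, the alpha-crystallin B chain of lens and muscle, was measured by 1 probe set at 12.9 and 20.5 in the 375K and 750K 48 h cultures and 84.1 in the 24 h culture. The 24 h signal reached 0.992 times the threshold of its array and those at 48 h stayed at 0.138 and 0.161 times. Without KRT10 in the reference the 24 h threshold was 82.0, which the CRYAB signal of 84.1 exceeded. HSPB2, a muscle protein whose gene neighbours CRYAB on chromosome 11, was at 8.95 and 6.86 in the 375K and 750K 48 h cultures and 8.08 in the 24 h culture on its own probe set. All 3 lay under 0.1 times the threshold, at 0.0538 to 0.0959 times. The probe set shared by HSPB2, C11orf52 and their read-through transcript gave 95.4 and 67.6 at 48 h and 86.3 at 24 h. It passed the threshold by 1.02 times in the 375K 48 h and the 24 h culture and stayed at 0.531 times in the 750K 48 h culture, and its signal cannot be divided between these transcripts.

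HSPB6 (HSP20), a relaxing factor of smooth muscle, gave 5.26 and 14.3 in the 375K and 750K 48 h cultures and 66.7 in the 24 h culture on one probe set. The other gave 39.9 and 16.8 at 48 h and 39.3 at 24 h. The 24 h culture stood out on the first probe set and lay within the 48 h pair on the second. HSPB3, the small heat shock protein of skeletal muscle that pairs with HSPB2, stayed at 8.97 and 10.5 at 48 h and 11.3 at 24 h. HSPB7, the cardiovascular member, gave 24.9 and 36.4 at 48 h and 13.1 at 24 h on one probe set, and 9.28 and 18.0 at 48 h and 7.25 at 24 h on the other. Both probe sets of HSPB7 were lowest at 24 h, at 0.154 and 0.0856 times the threshold. For the 10 probe sets not above background, the SD over the arrays had a median of 0.73 on the log2 scale, against 0.90 for all probe sets not above background and 0.15 for those above it. Such differences between cultures were therefore not tested. A signal under the threshold shows only that the probe set did not exceed the chosen percentile of the reference signals on that array. It does not show that the transcript was undetectable or absent.

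The comparison of the cultures harvested at 48 h with the one at 24 h was limited to probe sets with a mean log2 signal above that of the mean threshold (102), which left HSPB1 and BAG3. The log2 difference, 48 h minus 24 h, was -0.47 for HSPB1 (standard error 0.12, 95% interval -0.72 to -0.21, limma with Benjamini-Hochberg adjustment, adjusted p = 0.141), a signal at 48 h of 0.724 times that at 24 h. For BAG3 it was -0.41 (standard error 0.13, interval -0.67 to -0.14, limma, adjusted p = 0.267), a signal of 0.755 times. Neither passed the adjusted threshold of 0.05, although both unadjusted p-values were below it (limma, 0.00121 for HSPB1 and 0.00533 for BAG3). Over all tested probe sets 0.24% passed (55, with 11 or 0.0479% higher and 44 or 0.192% lower at 48 h; 6 higher and 7 lower after scaling to equal medians) and 9.2% had an unadjusted p under 0.05. The standard errors and p-values rest on limma's mean-variance trend, without which 0 probe sets passed (1366 at an unadjusted p under 0.05) and the adjusted p was 0.765 for both HSPB1 and BAG3. The differences of HSPB1 and BAG3 were -0.42 and -0.38 without the 375K 48 h culture and -0.51 and -0.43 without the 750K 48 h culture. Both 48 h signals below the 24 h signal were found for 35.1% of the tested probe sets, and a difference as low as that of HSPB1 or BAG3 for 6.49% and 8.75%. With 1 array at 24 h, the test takes its spread to be that of the arrays at 48 h, whose cultures differed in seeding.

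**Figure D3:**
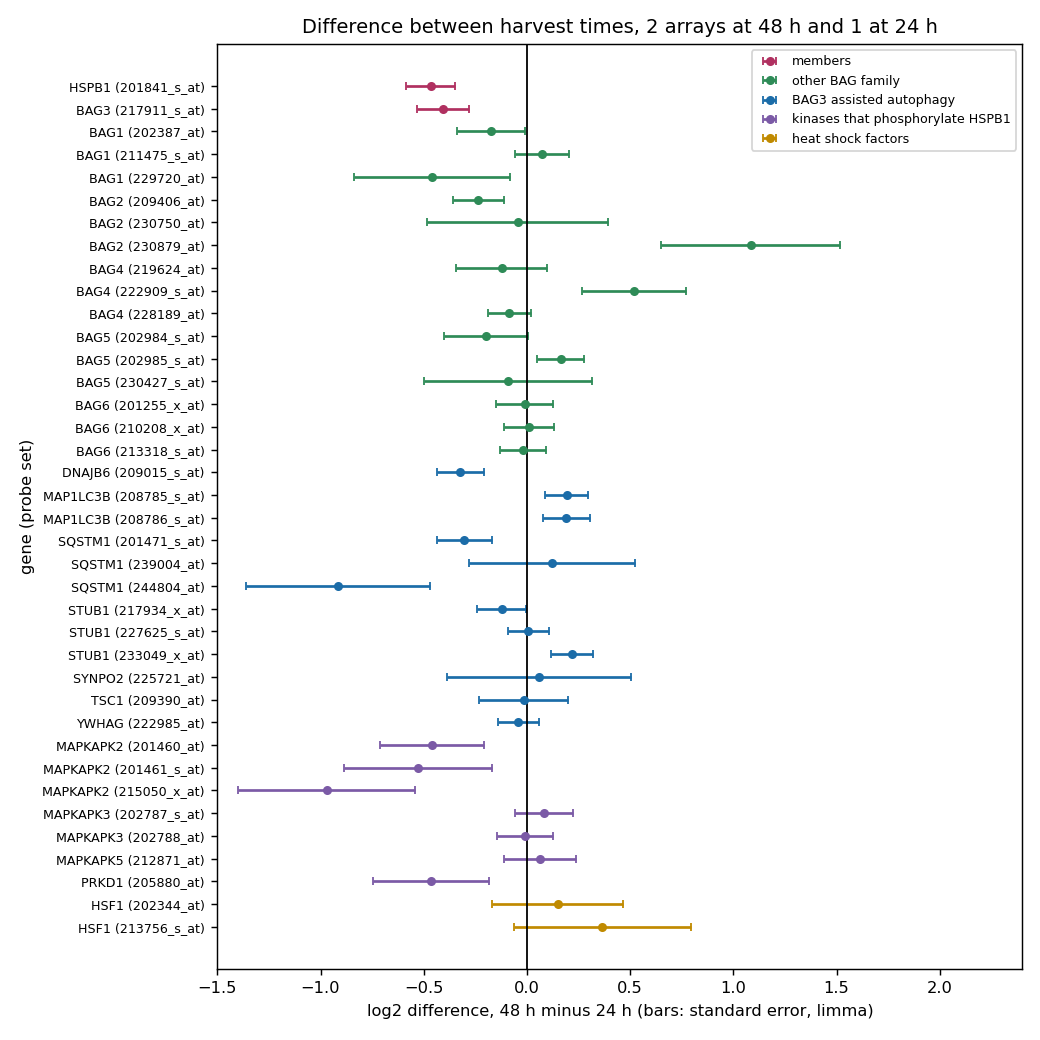
Log2 difference in signal, 48 h minus 24 h, for the tested probe sets of HSPB1 and BAG3 (members) and of the other BAG genes, partners and regulators. Points are estimates, bars are standard errors from limma, and negative values mean a lower signal at 48 h. HSPB1 lies at -0.47 and BAG3 at -0.41, and no probe set shown passed the adjusted threshold.

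Genes of the same families and pathways were examined in the same way. All 5 other BAG genes measured (BAG1, BAG2, BAG4, BAG5 and BAG6), which share the HSP70-binding domain with BAG3, were above background, BAG1 at 1536 ± 53.7 (SD, n = 3 arrays) and BAG4 at 3633 ± 172 on their brightest probe sets. Of the other genes classed with the small heat shock proteins, the lens gene CRYAA (37.1 ± 26.5), the testis gene HSPB9 (75.9 ± 15.3) and the sperm tail gene ODF1 (104 ± 31.4) were not above background. HSPB11, now named IFT25 and a subunit of intraflagellar transport, was at 6980 ± 479. Counting these with the 7 listed here, HSPB1 and IFT25 were the only genes ever classed in the family that were above background among those measured.

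Partners of BAG3 in chaperone-assisted autophagy were above background for all 7 genes measured. STUB1, the ubiquitin ligase CHIP, gave 9964 ± 589 (SD, n = 3 arrays), the autophagy receptor SQSTM1 1478 ± 190.5, and the 14-3-3 gene YWHAG 12276 ± 704. SYNPO2, the synaptopodin-2 gene that recruits autophagosome formation to BAG3 in muscle, was just above background at 125 ± 3.58 on 1 of 7 probe sets, 1.00 to 1.42 times the thresholds. Of the kinases that act on HSPB1, all 4 measured were above background, among them MAPKAPK3 at 1490 ± 85.0 and PRKD1 at 380 ± 94.5. HSF1 was above background at 285 ± 50.7, and the lens factor HSF4 was not, at 38.8 ± 14.6.

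**Figure D4:**
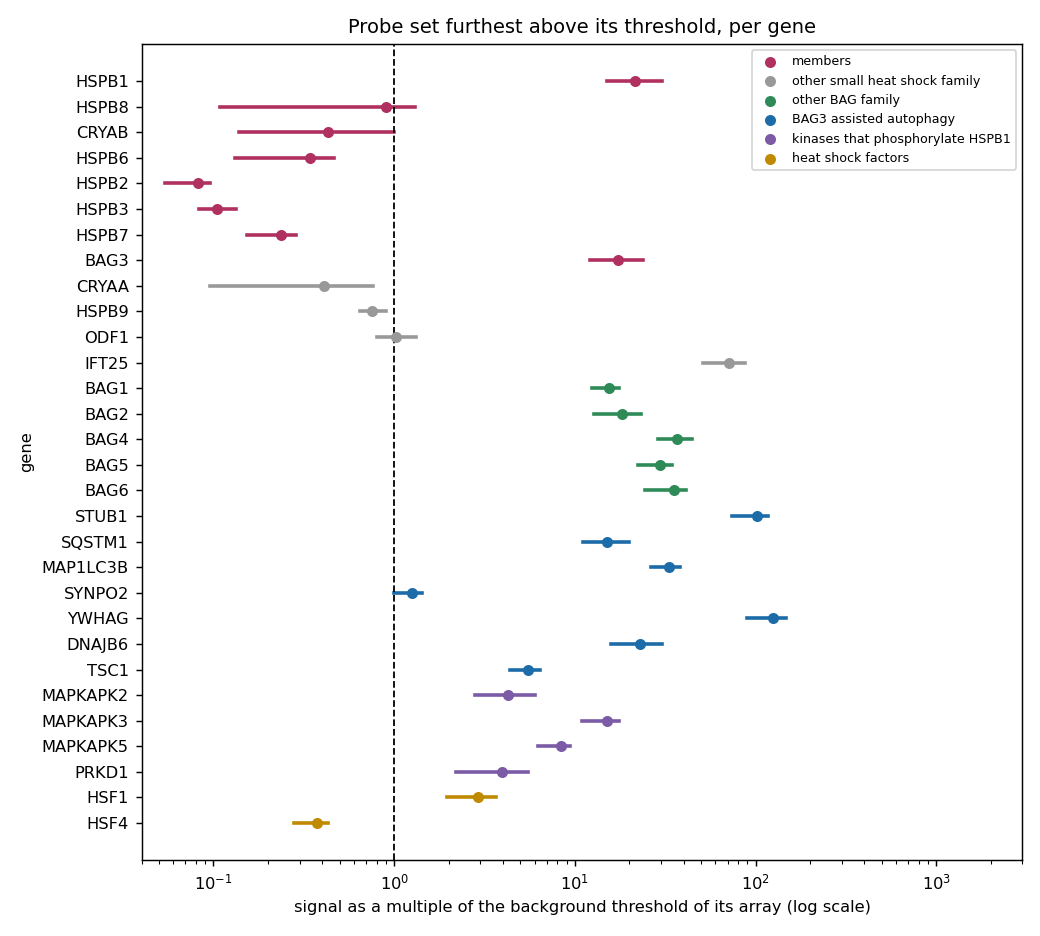
Signal of the small heat shock protein genes and BAG3 (members) and of related genes, as multiples of the background threshold of each array (horizontal log axis). For each gene the probe set furthest above its threshold and listed for that gene alone is shown; points are means and lines the range over 3 arrays, and the dashed line is the threshold. HSPB1 and BAG3 lie between 12.2 and 30.3 times the threshold, and the probe sets shown for the other 6 members reach at most 1.31 times.

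Between the harvest times none of the related genes looked up passed the test. IFT25 was not among them, since the lookup used its earlier name HSPB11, so no result is given for it. For the other BAG genes 0 of 15 tested probe sets were called (limma, 1 at an unadjusted p under 0.05), with a median log2 difference of -0.05, and for the autophagy partners 0 of 12 (3 at an unadjusted p under 0.05), with a median of -0.0048, against -0.0047 over all tested probe sets. Of these 12, from 7 genes, 3 had both 48 h signals below the 24 h signal and 5 had both above it. Over all 22945 tested probe sets, 8050 (35.1%) had both below and 8114 both above. For the kinases 0 of 7 were called (1 at an unadjusted p under 0.05) and the median was -0.46, set by the 3 probe sets of MAPKAPK2 (-0.46, -0.53 and -0.97) and that of PRKD1 (-0.46). The other 3 were near 0, at 0.08 and -0.0074 for MAPKAPK3 and 0.06 for MAPKAPK5. For HSF1 0 of 2 were called (0 at an unadjusted p under 0.05), at 0.15 and 0.37.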

How the data were processed

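Total RNA of 3 unstressed HEK-293T cultures was hybridised to 1-colour arrays. The authors summarised the probes to signals by MAS5, and the submitters' processing notes name GCOS 1.0. The deposited values are intensity on a linear scale, with a mean of 500.1 on each array after trimming 2% at each end. Absent/present calls were not used here. No array pair held identical values. The number of arrays limits the precision.

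Probe sets were named through the platform annotation: 41097 name 1 gene, 1801 several genes and 11777 no gene. The calling rule of the report used 279 reference probe sets of 191 genes, 127 of them olfactory or taste receptor probe sets. Of these, 3 were above background, all of KRT10. The 48 h and 24 h cultures were compared with limma 3.58.1 (mean-variance trend, 1 residual degree of freedom) on log2(signal + 20.5), the median reference signal, over 22945 probe sets; adding this value understates changes of low signals. Named genes were all members and, from each related list, those not above background and those nearest to and furthest from the threshold, with others singled out afterwards. No genes were named for a similar pattern, as 3 arrays allow no correlation. Steps were tested on simulated data. The members and lists were chosen with earlier results of these data known. Alternatives were other percentiles, references, numbers of arrays, probe set types, normalizations, added values, filters and variance models, and leaving out arrays.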

Additional observations from a re-analysis of the deposited data

How the results depend on the processing

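HSPB1 and BAG3 were the members above background at the 90th and the 99th percentile, with receptors alone as reference and after quantile normalization. They were also the only ones in an alternative chosen after seeing the data, a reference without KRT10. With 2 of 3 arrays sufficing, 4 probe sets were above background, 1 of HSPB8 and the shared probe set of HSPB2 being added. Without probe sets marked _s_at, _x_at or _a_at, 0 member genes and 0 member probe sets were above background, since HSPB1 and BAG3 have no other kind. Leaving out an array gave 2 to 3 genes, 2 to 3 probe sets and a share of all genes of 51.9% to 54.5%, HSPB8 being the gene added. This share was 26.2% at the 99th percentile and 48.6% there without KRT10. Between the harvest times 55 probe sets passed, and 91 did so with no filter (20 higher and 71 lower at 48 h, with more probe sets tested), 13 after scaling to equal medians (6 higher, 7 lower) and 0 without limma's trend (0 higher, 0 lower; 1366 at an unadjusted p under 0.05); the cause was not tested. The differences of HSPB1 and BAG3 stayed negative and missed the adjusted threshold in each of these settings and with other added values, with adjusted p (limma) of 0.123 to 1.00 for HSPB1 and 0.259 to 1.00 for BAG3. Leaving out a 48 h array left no residual degrees of freedom, so these differences have no test. No paired analysis was possible because the records give no replicate numbers and there is 1 array at 24 h.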
